A study of Mus musculus with 2 samples.

Results

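The Th2 cytokine locus of the mouse was examined for open chromatin in thymus tissue. Its members were the 4 genes Il5, Rad50, Il13 and Il4, and the stretch taken was the span of these genes in the GENCODE M21 annotation with 30 kb added at each end. On mm10 (GRCm38) this was chr11:53572982-53755106, or 182.125 kb. It held 21 of 132737 peaks in replicate 1 and 10 of 69798 peaks in replicate 2, which joined into 20 of 138590 regions when peaks that overlapped by at least 1 bp were merged. The samples were thymus of female B6CASTF1/J mice, the F1 hybrid of C57BL/6J and CAST/EiJ, aged 10 days. There were 2 DNase-seq libraries in 1 group, with no treatment, no mutant and no control, so nothing below is a comparison of conditions and no p-value was computed. The labels number the females separately but give both samples the same donor identifier, and each value is given per library, with a mean ± SD over n = 2 where both have one.

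DNase-seq maps where chromatin is open: the enzyme DNase I cuts DNA that is not covered by nucleosomes, a peak is a stretch with many cuts, and a footprint is a short run of bases within it that is cut less, as when a bound protein shields it. Il4, Il13 and Il5 encode the signature cytokines of type 2 helper T cells, which drive switching to IgE in B cells (Il4), mucus production and airway responses (Il13) and the growth of eosinophils (Il5). Rad50, which lies between Il13 and Il5, encodes a subunit of the complex that senses and repairs DNA double-strand breaks and is used by nearly all cells, and the introns at its 3′ end hold the locus control region of the cytokine genes. In effector cells the cytokine genes and this control region become hypersensitive to DNase I under GATA3 and STAT6, whereas the thymus consists mainly of immature thymocytes that do not yet make these cytokines.

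Replicate 1 was the library with more peaks, footprints and listed bases in all. The median peak height, the authors' signal, was 0.625 in replicate 1 and 0.828 in replicate 2, and the stretches listed with a false discovery rate (FDR) of the cut rate under 0.05 covered 55.2 and 24.1 Mb. The tissue label was checked on marker genes, for a peak within 500 bp of an annotated start. All 7 thymocyte markers (Cd3e, Cd4, Cd8a, Cd8b1, Rag1, Lck and Tcf7) had one in both libraries, as did 2 of 5 markers of natural killer and innate lymphoid cells (Rora and Il7r), 0 of 5 of mast cells and basophils and 0 of 3 of eosinophils. Of all 21755 protein-coding genes, 63.9% had one in replicate 1 and 58.3% in replicate 2. Such peaks are thus common, and the check is a weak one. The sources used here do not give the number of reads, so a region without a peak was not detected at these depths and is not shown to be closed.

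The sequences of 4 regions that were open in both libraries and held wide footprints are given first, since most of the footprint results turn on them. Regions are numbered 1 to 20 in order along the chromosome. Letters are those of the reference genome, GRCm38.p6, on the plus strand, and not those of the CAST/EiJ chromosomes that these mice also carry. Capitals mark bases inside a footprint in both libraries.
Region 2 (Kif3a intron 9), chr11:53590361-53590560: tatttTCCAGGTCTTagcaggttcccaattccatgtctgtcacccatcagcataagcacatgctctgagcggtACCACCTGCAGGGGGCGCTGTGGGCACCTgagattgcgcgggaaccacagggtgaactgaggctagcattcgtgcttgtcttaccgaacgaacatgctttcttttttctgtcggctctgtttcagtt
Region 6 (between Il4 and Il13), chr11:53628001-53628140: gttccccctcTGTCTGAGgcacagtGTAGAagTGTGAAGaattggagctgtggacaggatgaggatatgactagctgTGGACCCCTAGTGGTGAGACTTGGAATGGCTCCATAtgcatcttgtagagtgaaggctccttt
Region 16 (beyond Il5), chr11:53735701-53735920: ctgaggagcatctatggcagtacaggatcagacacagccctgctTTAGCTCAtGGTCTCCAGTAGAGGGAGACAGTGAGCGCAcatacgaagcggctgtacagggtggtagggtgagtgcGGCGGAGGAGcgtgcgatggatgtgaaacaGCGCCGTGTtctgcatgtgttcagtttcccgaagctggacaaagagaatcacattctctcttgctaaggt
Region 17 (beyond Il5), chr11:53737061-53737340: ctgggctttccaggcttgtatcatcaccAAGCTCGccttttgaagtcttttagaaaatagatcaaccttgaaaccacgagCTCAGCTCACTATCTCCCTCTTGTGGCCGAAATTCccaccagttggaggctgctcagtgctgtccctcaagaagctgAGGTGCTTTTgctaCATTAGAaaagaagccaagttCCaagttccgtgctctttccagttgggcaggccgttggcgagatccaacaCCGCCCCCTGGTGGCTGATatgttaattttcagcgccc

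The open chromatin of the locus that both libraries shared lay in Kif3a, between Il4 and Il13, upstream of Il13, at the Rad50 start and beyond Il5, and not within 500 bp of a cytokine gene start. Of the 20 regions, 10 were seen in both libraries, 10 in replicate 1 alone and 0 in replicate 2 alone. The count of peaks averaged 15.5 ± 7.78 (SD, n = 2), and the peaks covered 4066 bp in replicate 1 and 1746 bp in replicate 2. Of the replicate 1 peaks, 11 of 21 (52.4%) were overlapped by replicate 2 peaks, beside 43.2% of all replicate 1 peaks. Of the replicate 2 peaks, 10 of 10 were overlapped by replicate 1 peaks, beside 83.2% of all replicate 2 peaks. Heights in the locus ran from 0.203 to 5.08 with a median of 0.666 in replicate 1, and from 0.295 to 5.25 with a median of 1.14 in replicate 2. In replicate 1, 12 of 21 peaks were above the median of their library, and in replicate 2, 8 of 10. The number of peaks in replicate 1 depended on the length of its list: with the 69798 highest peaks of either library, 12 stood in the locus.

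**Figure D1:**
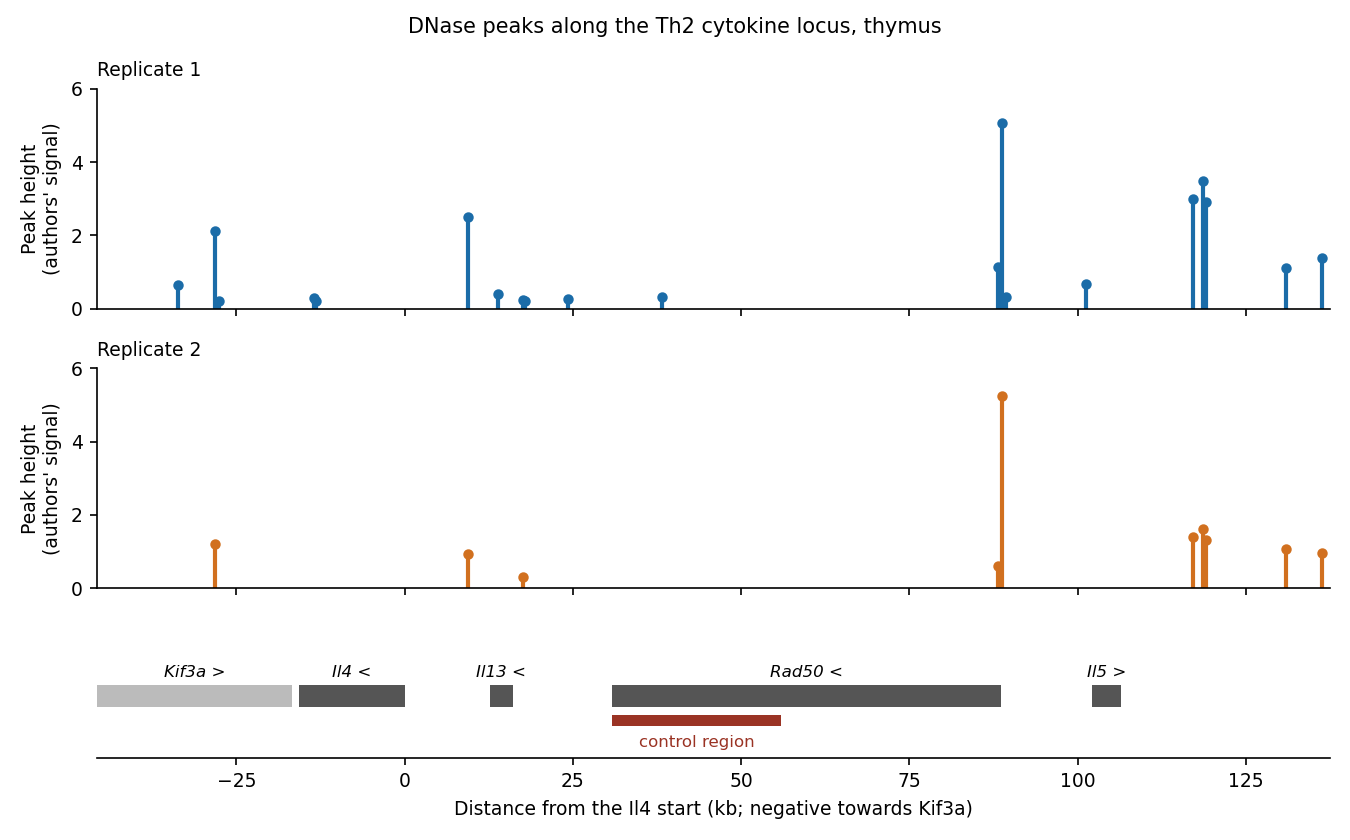
Peak height (authors' signal, vertical axis) of each region along the Th2 cytokine locus, in replicate 1 (top) and replicate 2 (middle), against the distance from the Il4 start in kb. The genes are drawn below with their direction of transcription (> or <) and the control region at the 3′ end of Rad50 in red. The highest point in either library is the Rad50 promoter (5.08 and 5.25), and there are no points over Il5.

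Of the 4 members, only Rad50 had a promoter peak, meaning a peak within 500 bp of an annotated start, in replicate 1 and in replicate 2. This is 1 of 4 members, beside 63.9% of all 21755 genes that code for protein with such a peak in replicate 1 and 58.3% of them in replicate 2. At Il4, with 4 annotated starts, at Il13 and at Il5, no base within 500 bp of a start was listed with an FDR under 0.05 in either library, and no footprint was called there. The nearest peak to the principal Il4 start lay 9332 bp away in both libraries. The nearest peak to the Il13 start lay 1439 bp away in replicate 1 and 1581 bp away in replicate 2. For Il5 the nearest peak was 774 bp away in replicate 1 and 13354 bp away in replicate 2, where it was the Rad50 promoter itself. The cytokine promoters thus shared the absence of any listed signal, while their nearest peaks stood at very different distances.

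The Rad50 promoter region, region 13, was the highest of the locus in both libraries. It lies at chr11:53707261-53707460 and spans the start of Rad50 at 53707319, from which the gene is read on the minus strand. Its height was 5.08 in replicate 1 and 5.25 in replicate 2, a mean of 5.17 ± 0.1203. Divided by the median of each library this was 7.24 ± 1.26 (n = 2), and among all promoter peaks it stood at percentile 56.6 in replicate 1 and 59.4 in replicate 2, so that it was near the middle of the promoters that had a peak. The region held 4 footprints in replicate 1 and 6 in replicate 2, and all 4 of replicate 1 overlapped footprints of replicate 2. The part upstream of the start is given here because 3 of these footprint pairs lie in it, with capitals for bases inside a footprint in both libraries. The middle run of capitals holds GGAAGT, letters that ETS factors recognise.
Region 13 upstream of Rad50, chr11:53707320-53707460: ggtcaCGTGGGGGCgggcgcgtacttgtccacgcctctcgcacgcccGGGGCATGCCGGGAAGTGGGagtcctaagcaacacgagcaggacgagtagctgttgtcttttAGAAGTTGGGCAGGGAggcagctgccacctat

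A second region of Rad50, region 12 in intron 1 (chr11:53706661-53706980), had its centre 498 bp inside the gene. It reached 1.15 in replicate 1 and 0.620 in replicate 2, a mean of 0.886 ± 0.377. It was above the median of its library in replicate 1 and below it in replicate 2. Region 14, 739 bp upstream of the Rad50 start, had a height of 0.313 in replicate 1 and no peak in replicate 2. These regions were not separated in the bases listed under FDR 0.05. In replicate 1 an unbroken run of 1773 bp covered regions 12 and 13 and most of region 14. In replicate 2 an unbroken run of 1033 bp joined regions 12 and 13.

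**Figure D2:**
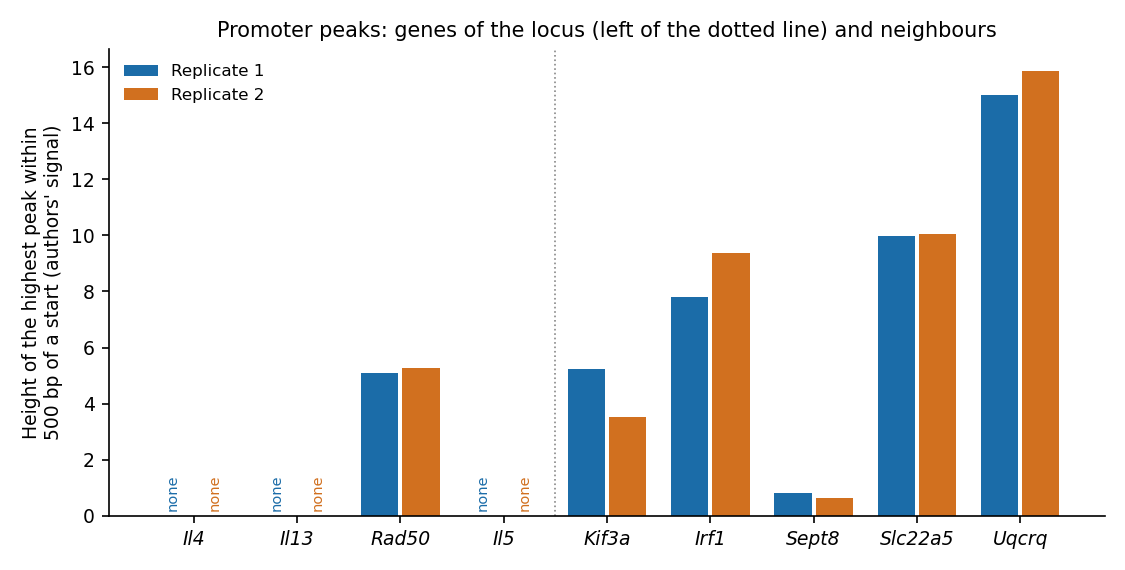
Height of the highest peak within 500 bp of any annotated start (authors' signal, bars from 0) for the members Il4, Il13, Rad50 and Il5, left of the dotted line, and for neighbouring genes, right of it, in replicate 1 (blue) and replicate 2 (orange). "None" marks genes without such a peak. Rad50 has bars at 5.08 and 5.25, and Il4, Il13 and Il5 have none.

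The locus control region at the 3′ end of Rad50 held 1 low peak in replicate 1 and none in replicate 2. It was taken as the 25 kb of the gene that end at its 3′ end, towards Il13 (chr11:53649519-53674518), a working definition that covers introns 19 to 24 of the 25-exon transcript in whole or in part. It held 1 region, region 11 in intron 21 (chr11:53656747-53657060). This region was called in replicate 1, with a height of 0.330 (percentile 26.4 of that library), a lowest FDR of 3.76e-05 and 1 footprint. Replicate 2 had no peak, no footprint and no base listed under FDR 0.05 in the whole 25 kb. In replicate 1, 334 bp of the 25 kb were listed, a smaller share than the 2.10% of the genome listed in that library. Stretches with few peaks are common. Of genome windows as long as the whole locus, 16.5% held no peak in replicate 1 and 36.5% in replicate 2. The median window held 4 and 1. Such shares are not given here for windows of 25 kb. The call rested on replicate 1: with the 69798 highest peaks of either library, 0 regions remained in the 25 kb. Region 11 held 1 match to letters of the GATA family (TTATCT, the other strand of AGATAA), which lay outside its footprint. The remaining 32.801 kb of Rad50 held the centre of 1 region (region 12), and region 13 reached into it at the gene start. The longest stretch of the locus without a peak, 49.6 kb, ran inside the gene from region 11 to region 12.

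Around Il4 there was a stretch of 22.54 kb without a peak in either library, which contains the Il4 promoter, all exons of its principal transcript and part of the space towards Il13. The annotated Il4 gene also includes a longer noncoding transcript, and regions 4 and 5 lie inside that transcript alone, 7.145 and 6.999 kb past the 3′ end of the principal one. Their heights in replicate 1 were 0.284 and 0.214, both under the median of the library. In replicate 2 neither had a peak or a base listed under FDR 0.05. Region 5 held a match to the STAT6 letters TTCNNNNGAA, and neither library had a footprint on it.

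Region 6, between Il4 and Il13 (chr11:53628001-53628140), was the region nearest to the principal Il4 start. It lies 9.402 kb upstream of the principal Il4 start and 6.631 kb past the Il13 start, beyond the 3′ end of Il13. Its height was 2.51 in replicate 1 and 0.933 in replicate 2, a mean of 1.72 ± 1.12, and at 2.69 times its ratio of replicate 1 to replicate 2 was the highest of the shared regions. All 3 footprints of replicate 1 in it overlapped footprints of replicate 2, and the widest of these spanned 40 bases in replicate 1 and 37 in replicate 2.

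Il13 had weak signal at its 3′ part and upstream. Region 7 overlaps exon 3 of Il13 (chr11:53632421-53632600), and had a height of 0.394 in replicate 1. Replicate 2 had no peak there, but 49 bp were listed in it with an FDR as low as 0.0178. Region 8, whose centre is 1602 bp upstream of the Il13 start, was called in both libraries at low height, 0.237 in replicate 1 and 0.295 in replicate 2 (percentiles 14.6 and 5.94). It was the only shared region with no footprint, it was absent from the stricter peak list of either library, and at 69.6% it had the highest GC content of the 20 regions. Region 9, next to it, had a height of 0.214 in replicate 1 and an FDR as low as 0.0316 over 26 bp in replicate 2. Region 10, 8237 bp upstream of the Il13 start, had a height of 0.266 in replicate 1 and nothing listed in replicate 2. The central 150 bases of region 8 are given as the only peak region shared by both libraries within 2 kb of a cytokine gene start, with capitals for AGATAG, letters of the GATA family when a final G is allowed as well.
Region 8 (upstream of Il13), chr11:53636229-53636378: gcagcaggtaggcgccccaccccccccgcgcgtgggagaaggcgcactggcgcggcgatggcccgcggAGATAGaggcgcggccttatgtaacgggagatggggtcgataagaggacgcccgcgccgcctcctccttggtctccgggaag

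The Il4 and Il13 promoters are given beside these, 250 bases upstream of the RefSeq starts on GRCm38.p6, because they carry letters of the factors that act on them in effector cells yet had no peak here. Of the members, 3 of 4 had a promoter entry in the RefSeq table used. Capitals mark, on either strand, the letters AGATAA and those written TGATAA for the GATA family, those written GGAAAA for NFAT, those written TTCNNNNGAA for STAT6 and those written TGANTCA for AP-1. Il4 had 4 NFAT matches and 1 STAT6 match, which overlaps an NFAT match, upstream of its principal start. The window of a second RefSeq start of Il4 (chr11:53617339-53617588) held none of these letters. Il13 had 1 NFAT and 1 GATA match, and Il5 had none of these letters in the same window. Over 32851 promoters of the same length, 20.4% held NFAT letters, 5.85% STAT6 letters, 16.6% GATA letters and 6.75% AP-1 letters, so that such matches are common and describe only the letters.
Il4 promoter, chr11:53618666-53618915, minus strand: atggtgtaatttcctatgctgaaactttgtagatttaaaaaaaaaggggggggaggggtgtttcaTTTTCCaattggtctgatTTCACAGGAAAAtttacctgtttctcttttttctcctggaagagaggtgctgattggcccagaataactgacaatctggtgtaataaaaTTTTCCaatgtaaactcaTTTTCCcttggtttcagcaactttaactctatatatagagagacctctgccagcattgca
Il13 promoter, chr11:53634703-53634952, minus strand: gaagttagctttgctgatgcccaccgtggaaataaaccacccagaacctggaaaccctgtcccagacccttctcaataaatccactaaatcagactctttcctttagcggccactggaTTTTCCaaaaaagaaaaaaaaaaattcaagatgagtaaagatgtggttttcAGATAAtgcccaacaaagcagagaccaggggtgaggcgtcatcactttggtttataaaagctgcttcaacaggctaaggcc

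No signal was listed over Il5 itself. The 4.313 kb of Il5 held 0 peaks, 0 footprints and 0 bases listed under FDR 0.05 in either library. Upstream of it, region 15 (chr11:53719781-53720020), centred 893 bp before the start, was the highest of the regions seen in replicate 1 alone. Its height was 0.666, close to the median of the library, with a lowest FDR of 8.21e-10 over all of its 240 bp, and it held no footprint. Replicate 2 had no base listed there. From region 15 to region 16 the locus had 15.68 kb without a peak.

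Beyond Il5, in the 30 kb towards Irf1, which encodes a transcription factor of the interferon response, lay 5 of the 10 shared regions. No region there was seen in 1 library alone. The centres of regions 16, 17 and 18 stand within 2 kb of each other, 15.017, 16.407 and 16.997 kb beyond the Il5 start and more than 32 kb before the Irf1 start. Region 16 had a height of 2.9997 in replicate 1 and 1.41 in replicate 2, a mean of 2.20 ± 1.13. Region 17 had 3.47 and 1.61, a mean of 2.54 ± 1.32, and region 18 had 2.90 and 1.32, a mean of 2.11 ± 1.12. After the Rad50 promoter these were the 3 highest regions of the locus in either library. Region 19 had 1.11 in replicate 1 and 1.08 in replicate 2. Region 20, whose peaks run past the end of the stretch studied, had 1.38 and 0.973. Regions 19 and 20 lie 20.479 and 14.994 kb before the Irf1 start, closer to it than to the Il5 start.

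On the side of Kif3a, a gene for a subunit of a kinesin motor that lies next to Il4, region 2 in intron 9 was the strong one. Its height was 2.13 in replicate 1 and 1.21 in replicate 2, a mean of 1.67 ± 0.655. Region 1 in intron 8 had a height of 0.643 in replicate 1 and no peak or listed base in replicate 2. Region 3 in intron 10 had the lowest peak of the locus, at 0.203 in replicate 1, and no peak in replicate 2. Region 1 is given here for its footprint on the letters CCACTAGGTGGC, with capitals for bases inside a footprint of replicate 1.
Region 1 (Kif3a intron 8), chr11:53584961-53585120: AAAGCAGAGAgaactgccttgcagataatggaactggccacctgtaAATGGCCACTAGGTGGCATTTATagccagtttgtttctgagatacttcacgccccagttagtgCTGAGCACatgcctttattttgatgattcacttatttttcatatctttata

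The shared regions included the high ones. In replicate 1 the 10 shared regions had heights from 0.237 to 5.08 with a median of 2.32, and the 10 regions without a replicate 2 peak had heights from 0.203 to 0.666 with a median of 0.298. Of the unshared ones, 2 of 10 (regions 7 and 9) held bases listed under FDR 0.05 in replicate 2, beside 5.64% of all 75376 replicate 1 peaks without a replicate 2 peak. Among the shared regions 8 of 10 were higher in replicate 1, with ratios of 0.804 to 2.69. Over all overlapping peaks 79.7% were higher in replicate 1, and the median ratio was 1.41. The Rad50 promoter and region 8 were the exceptions, each a little higher in replicate 2 on the deposited scale. With heights divided by the median of each library, all 10 shared regions were higher in replicate 1. The median was lower in replicate 1 (0.625) than in replicate 2 (0.828), so this division raises replicate 1 against replicate 2 everywhere. The share over all overlapping peaks was not computed on this scale.

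**Figure D3:**
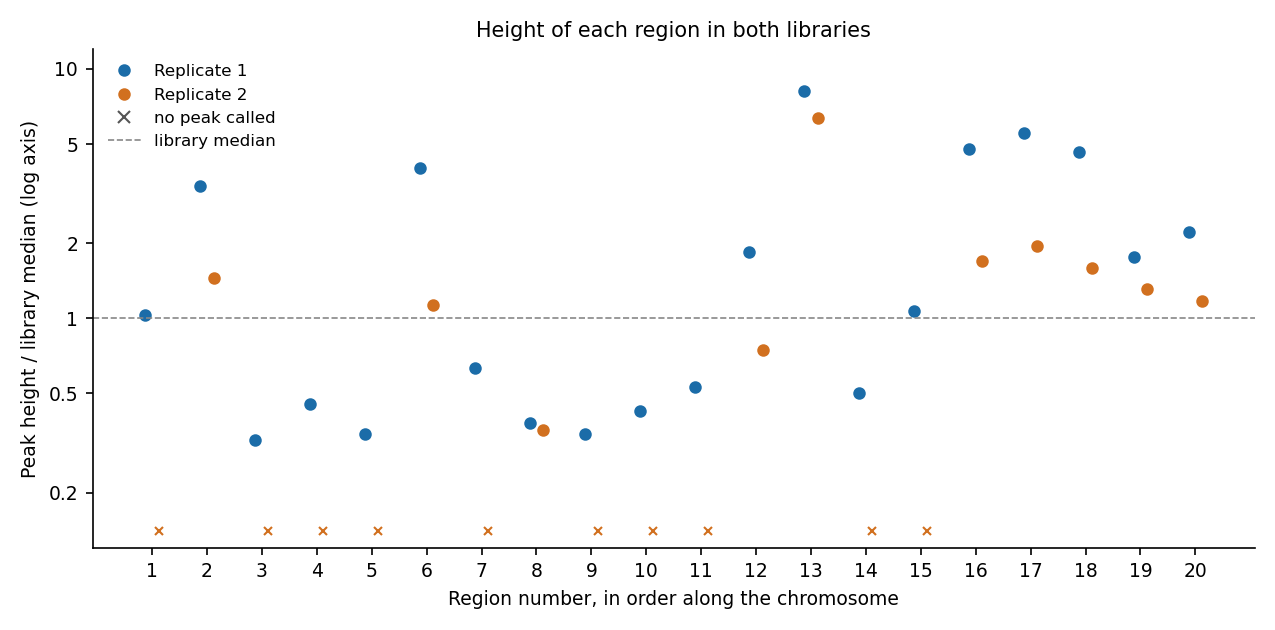
Height of each of the 20 regions divided by the median height of its library (log axis), in replicate 1 (blue) and replicate 2 (orange), with crosses where no peak was called and a dashed line at the median. Region 13, the Rad50 promoter, is highest in both libraries, and every cross belongs to replicate 2.

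The locus held 54 footprints in replicate 1 and 32 in replicate 2. Of these, 42 (77.8%) overlapped a peak of their library in replicate 1, beside 82.8% of all footprints. In replicate 2, 30 (93.8%) did, beside 84.2% of all footprints. Between libraries 25 footprints of replicate 1 (46.3%) overlapped footprints of replicate 2, beside 33.5% of all of replicate 1, and 24 of replicate 2 (75%) overlapped those of replicate 1, beside 61.8%. Of the 54 in replicate 1, 35 lay in shared regions, 9 in unshared regions, with none in 5 of these, and 10 outside any region. All 32 of replicate 2 lay in shared regions. The 30 kb beyond Il5 alone held 23 in replicate 1 and 20 in replicate 2.

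**Figure D4:**
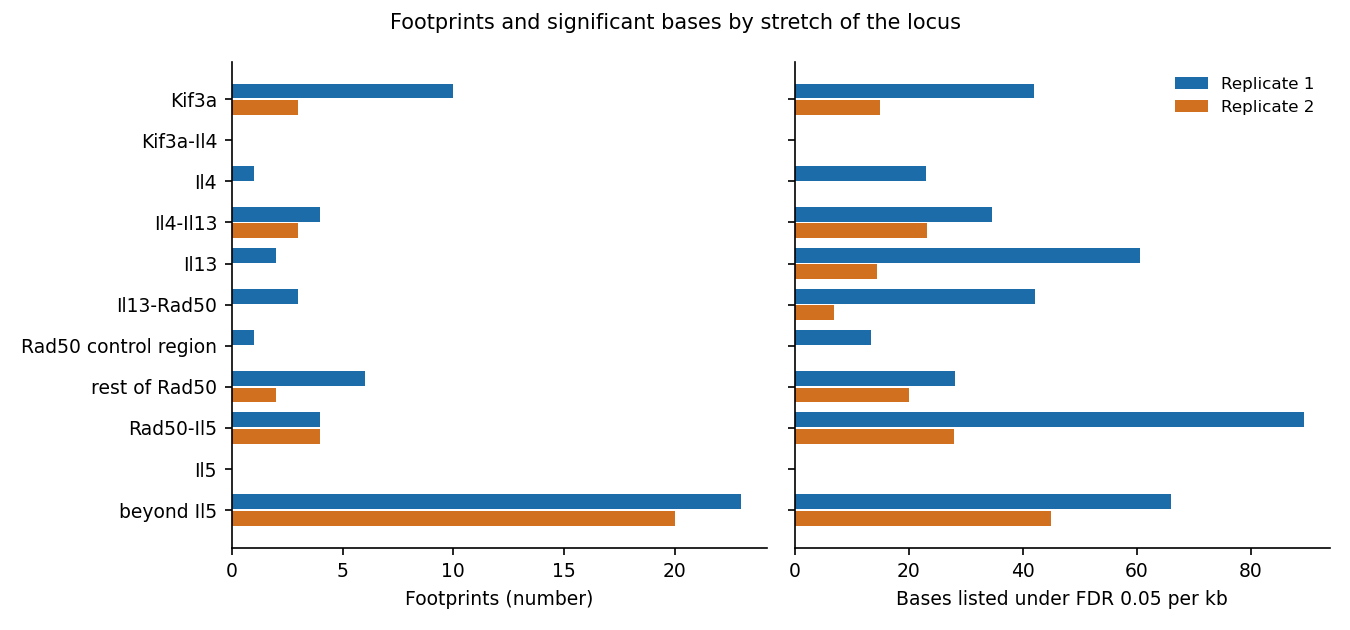
Number of footprints (left) and bases listed under FDR 0.05 per kb (right) in each stretch of the locus, from Kif3a at the top to the 30 kb beyond Il5 at the bottom, in replicate 1 (blue) and replicate 2 (orange). The stretch beyond Il5 has 23 and 20 footprints, and Il5 has no bar on either side.

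Most of the widest footprints lay on the sequences given above. Footprints of 30 bases or more numbered 4 of 54 in replicate 1 and 6 of 32 in replicate 2, which is 7.41% and 18.8% of the footprints in the locus, beside 6.34% and 6.56% of all footprints. In replicate 1 they lay in regions 6, 16, 17 and 18, and in replicate 2 in region 2 and in the same 4 regions, with a pair in region 17. After these sequences had been seen, they were searched with a 12-letter consensus of CTCF, a zinc finger protein that anchors chromatin loops and blocks enhancers, on both strands. With up to 1 mismatch it was found, within 5 bases, in 3 of 4 wide footprints in replicate 1 and 4 of 6 in replicate 2, beside 38.6% of 23812 and 32.1% of 13780 such footprints in the genome. With up to 2 mismatches it was found in 4 of 4 and 5 of 6, beside 53.3% and 45.3% in the genome. In the sequences printed here, the letters without mismatch were ccaccagggggc in region 17 and ccactaggtggc in region 1. Since the consensus was chosen on these sequences, the counts describe them and do not test anything.

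In the regions whose sequences are printed for these letters, the best match lay on either strand. It was the plus strand in regions 1, 2 and 16 and the minus strand in regions 6 and 17. In region 17 the match without mismatch lay in a footprint of 19 bases in replicate 1 and 24 in replicate 2, beside a wider footprint with 2 mismatches. In the central 200 bp of the 20 regions, the consensus with up to 1 mismatch was found in 7 (35%), beside 18.3% of 138520 regions of the genome. Of these 7 regions, 4 were shared and 3 were seen in replicate 1 alone. Region 17 is not among them, since its match without mismatch lies outside the central 200 bp.

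Letters of factors that act in T cells were counted beside their share in all regions of the genome. In the central 200 bp, the GATA letters named above were found in 4 of 20 regions, beside 13.01% of regions of the genome, and all 4 matches lay over 5 bp from any footprint. RUNX letters (TGTGGT) were found in 3, beside 18.9%, ETS letters (GGAAGT) in 3, beside 19.6%, and TCF and LEF letters (CTTTGA) in 2, beside 14.4%. NFAT letters (GGAAAA) were found in 3, beside 14.2%, AP-1 letters (TGANTCA) in 1, beside 6.03%, and STAT6 letters (TTCNNNNGAA) in 1, beside 4.92%. E protein letters (CAGCTG or its variant form CAGGTG) were found in 5, beside 33.7%. Each of these 5 regions had them within 5 bp of a footprint of at least 1 library. Only regions 2 and 13 had the same match so placed in both libraries. In regions 1 and 2 the footprints also hold the 12-letter CTCF letters. The share of matches near footprints over all regions of the genome is not given here for any family. YY1 letters (CCATNTT) were found in 0, beside 10.3%. An 8-letter form of the CTCF site (GGNGGCAG) was found in 2, beside 11.4%, and in region 13 it overlaps the E protein letters. With GATA letters that allow a final G, the count was 7 of 20, beside 22.9%, and in region 17 such letters lay on footprints of both libraries. These are the wide footprints that also hold the CTCF letters with 2 mismatches, and the GATA letters overlap those.

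The Rad50 promoter, at 5.08 in replicate 1 and 5.25 in replicate 2, stood among neighbours of unequal height. Of the 16 protein-coding genes other than the members with a start within 200 kb of the locus, 12 had a promoter peak in replicate 1 and 10 in replicate 2. Of all coding genes, 63.9% and 58.3% had one. Uqcrq and Gdf9 were counted through the same peak, as were Gm9945 and Sowaha in replicate 1. Irf1 had 7.79 and 9.39. Slc22a5, a carnitine transporter gene, had 9.97 and 10.05, and Uqcrq, a gene of respiratory complex III, had 15.016 and 15.851. Kif3a had 5.22 and 3.51, and Sept8, a septin gene, had 0.805 and 0.643. The Rad50 promoter was thus lower than those of Irf1, Slc22a5 and Uqcrq in both libraries, and higher than that of Sept8.

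Beside the 3 cytokine genes of the locus, which had no promoter peak, 25 other genes of type 2 helper cells were looked up. Of these, 16 had one in replicate 1 and 14 in replicate 2, and 14 had one in both, beside the shares of 63.9% and 58.3% given above for all coding genes, so that the list as a whole was near the background. Gata3, the lineage-defining factor, stood at 5.49 ± 1.49 times the library median (n = 2), Stat6, which relays IL-4 signals, at 5.05 ± 1.08, and Maf at 7.14 ± 2.32. Il4ra, the receptor subunit for IL-4 and IL-13, stood at 7.52 ± 2.45, and Junb at 9.18 ± 0.824. Crlf2 stood at 7.07 ± 0.212 and Gfi1 at 5.43 ± 0.338. Others were lower, with Il2rg at 3.07 ± 1.82, Ccr4 at 2.93 ± 1.58 and Irf4 at 2.64 ± 0.949. Lower still were Il5ra at 1.98 ± 1.26, Nfil3 at 1.83 ± 0.845 and Il17rb at 1.61 ± 0.531. Il13ra1 had a promoter peak in replicate 1 alone, at 0.380 times the median. These are multiples of the median of all peaks. By this measure the Rad50 promoter, near the middle of promoters with a peak, stood at 7.24 ± 1.26. Gata3 and Stat6 were lower than Rad50 in both libraries. Il1rl1, Ccr8, Ptgdr2 and Bhlhe41 had no promoter peak in either library. Among the other cytokine genes, Il9, Il10, Il3, Il31 and Il24 had no promoter peak in either library, and Csf2 had one in replicate 1 alone, at 0.324. Areg, which encodes a growth factor of the EGF family, was the exception, at 0.654 in replicate 1 and 0.643 in replicate 2.

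Distal peaks were assigned to the nearest protein-coding gene within 100 kb when they lay over 1 kb from any protein-coding start. Il13 had 6 in replicate 1 and 2 in replicate 2, Il5 had 3 and 3, and Il4 and Rad50 had 0 in either. Regions 4 and 5 lie inside the annotated Il4 gene and region 11 inside Rad50, yet none was counted for the gene that holds it. The 25 other type 2 genes had a median of 5 in replicate 1 and 2 in replicate 2, and all protein-coding genes a median of 2 and 1. The 7 thymocyte markers had a median of 17 and 10, with single genes ranging from 4 to 47 in replicate 1 and from 0 to 52 in replicate 2.

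In density, taken with its flanks of 30 kb, the locus stood above most of the genome and far below an active thymocyte locus. It had 11.5 peaks per 100 kb in replicate 1 and 5.49 in replicate 2. Of 14453 windows of the same length, 14.6% held at least as many peaks in replicate 1 and 18.6% in replicate 2, and the median window held 4 and 1. Under the same rule Ifng, the cytokine gene of type 1 helper cells, had 9.25 and 3.08 per 100 kb, and Il17a to Il17f, the cytokine genes of type 17 helper cells, had 3.34 and 0.835. Il3 to Csf2, on the same chromosome, had 21.2 and 3.75. Cd8a to Cd8b1, which encode the CD8 co-receptor, had 98.8 and 31.8. The regions seen in both libraries came to 5.49 per 100 kb in the Th2 cytokine locus, against 1.54 at Ifng, 0.835 at Il17a to Il17f, 3.75 at Il3 to Csf2 and 24.9 at Cd8a to Cd8b1. Of the shared regions of the Th2 cytokine locus, none lay within 1 kb of Il4, Il13 or Il5 starts. The density depended on the flanks, since 5 of the 10 shared regions lay in the 30 kb beyond Il5. With flanks of 10 kb the locus held 12 peaks in replicate 1 and 4 in replicate 2, against 21 and 10. Densities with flanks of 10 kb are not given for any locus, so the order of the loci holds for 30 kb alone. Bases listed under FDR 0.05 made up 4.003% of the locus in replicate 1 and 1.79% in replicate 2, beside 2.10% and 0.916% of the genome.

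**Figure D5:**
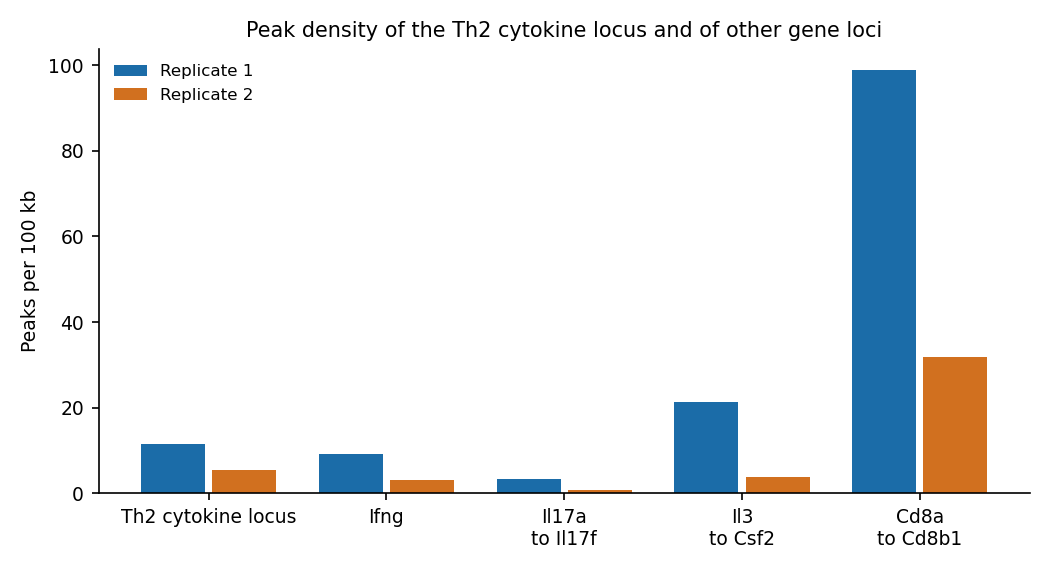
Peaks per 100 kb in the Th2 cytokine locus and in 4 other loci, each taken as the gene span with 30 kb on either side, in replicate 1 (blue) and replicate 2 (orange). The Th2 cytokine locus has 11.5 and 5.49, and Cd8a to Cd8b1 has 98.8 and 31.8.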

How the data were processed

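DNase-seq was measured in 2 thymus libraries. Per the README deposited with each sample, the authors made peak lists, footprints and FDR lists per library on mm10. The peak height deposited by the authors is a signal, with no scaling stated in the sources used. The deposited FDR values (q-values) lie under 0.05, and the footprint list carries the constant 0.01. The aligner, the callers and any correction of footprints for DNase I sequence preference are not given in the sources used here.

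Of the pair of peak lists per library, the larger was used and the other (93790 and 46467 peaks) served as the stricter alternative. Peaks were joined from 1 bp of overlap, and heights divided by the median of the library. Genes came from GENCODE M21 (chromosomes 1 to 19 and X) and letters from GRCm38.p6, with Python 3.11.15, numpy 2.4.6, pysam 0.24.0 and samtools 1.23.1. Chromosome ends agreed (0 peaks beyond them). Counting steps were tested on simulated data. The text names the members, each shared region and the regions seen in 1 library. Of the coding genes within 200 kb of the locus and of the fixed gene lists, it names a part. Members, lists and alternatives were chosen with earlier results of these data known. With 1 group of 2 libraries no test was made. Whether reads of the CAST/EiJ chromosomes aligned as well as the rest was not tested. The sequence of region 18 is not reported here.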

Additional observations from a re-analysis of the deposited data

How the results depend on the processing

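Of 47 alternative values for 20 results, 29 stayed within the limits set (a count within 1.5 times the main one) and 18 moved. The count of members with a promoter peak in both libraries (1 of 4, Rad50) was the same with windows of 250 bp and 1 kb and with the stricter peak list, and at 500 bp in either library alone. With 1 kb, replicate 1 alone had 2 of 4, Il5 being added through region 15. The 21 peaks of replicate 1 became 12 with equal numbers of peaks per library and 12 with flanks of 10 kb. The 10 peaks of replicate 2 became 4 with flanks of 10 kb and 18 with flanks of 50 kb. The 20 merged regions became 12 with equal numbers of peaks, and ranged from 10 to 21 when either library was left out. The single region in the control region was lost with equal numbers of peaks (0) and ranged from 0 to 1 when either library was left out, since it was called in replicate 1. Footprints over peaks, 72 in both libraries together, are a sum, so leaving either library out returns the count of the other, 30 or 42. Both values are among the 18 that moved, and they do not measure a dependence on processing. The shared regions numbered 9 with equal numbers of peaks and 8 with the stricter list. Equal numbers for merged regions and for the control region, the stricter list for the control region and for the other type 2 genes, the 12-letter CTCF consensus and the wider GATA letters were added after the data were seen. No paired analysis was possible because there was 1 group. The number of reads is unknown, so no interval from counting could be given.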

Other observations

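In region 17 the libraries divided the same stretch differently. Replicate 2 had a second wide footprint of 37 bases, while replicate 1 had 3 separate footprints of 14, 7 and 9 bases over the same stretch. It held no CTCF consensus with up to 2 mismatches. Of the runs of bases listed under FDR 0.05, those that touched none of the 20 regions came to 318 bp in 15 runs in replicate 1, the longest 127 bp in Kif3a, and to 3 bp in 1 run in replicate 2.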
